A study of Homo sapiens with 2 samples.

Results

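The genes described here encode enzymes of serine synthesis, one-carbon metabolism, nucleotide synthesis and polyamine synthesis. They are the 53 genes whose symbols were taken from a list of these pathways, out of 26255 gene symbols in the deposited tables, and all 53 were found. RNA was sequenced from OVSAHO, a human line established from serous ovarian cancer, with 1 library per group. The perturbed cells (OVSAHO-A2-siA4) are described as having SMARCA2 upregulated and SMARCA4 downregulated, with SMARCA2 stable and SMARCA4 knockdown as their genotype. The control cells (OVSAHO-Ctrl-siNC) have the genotype WT. SMARCA2 and SMARCA4 are the alternative ATPases of the SWI/SNF chromatin remodelling complex. Both changes are present in the same perturbed cells, so no difference below can be assigned to SMARCA2 or to SMARCA4 alone. Both groups were treated with carboplatin, a platinum drug that crosslinks DNA, at 25 µM for 2 days, so that no value below compares drug with no drug. The sample titles carry numbers that the labels do not explain, and if they mark clones, each difference is also one between 2 clones.

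Serine is made from a glycolytic intermediate and passes a carbon unit to folate when it is converted to glycine. Folate carries these units through a mitochondrial arm and a cytosolic arm, and they are used to build the purine ring, to methylate dUMP to dTMP, and to remake methionine from homocysteine. Methionine in turn feeds methylation, cysteine synthesis and polyamines. Cells need these routes for DNA synthesis and repair, and several of the enzymes are targets of antifolates and nucleoside drugs.

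The values are FPKM, numbers of fragments scaled by transcript length and by the number of mapped fragments, as the authors deposited them, so levels of different genes can be set side by side within a library. There were no replicates. Genes reaching 1 FPKM in either library entered the comparison, and a call was made where the log2 ratio, perturbed over control with 1 FPKM added to each value, was at least 1 (higher) or at most -1 (lower). No p-value can be given, and each fold is printed with a 95% exact binomial (Clopper-Pearson) interval on fragment numbers estimated from FPKM and transcript length. These intervals cover counting error only, not the spread between cultures.

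The estimated depths were 8850000 fragments in the perturbed library and 9050000 in the control. SMARCA2, the ATPase to be raised, was at 2.60 FPKM in perturbed cells, against 0.205 FPKM in control cells. SMARCA4, the ATPase to be lowered, was at 4.49 FPKM in perturbed cells, against 27.9 FPKM in control cells. Both went in the labelled direction. The epithelial keratin KRT8 was at 462 FPKM in perturbed cells, against 488 FPKM in control cells, and PAX8, a lineage factor of serous ovarian cancer, at 42.1 FPKM in perturbed cells, against 21.9 FPKM in control cells. In the same list of identity genes, WT1 was called higher, at 5.52 FPKM in perturbed cells, against 1.53 FPKM in control cells, and KRT7 lower, at 119 FPKM in perturbed cells, against 540 FPKM in control cells; WT1 was no call with a pseudocount of 5 FPKM. Of 7 leukocyte and endothelial markers, PTPRC and CD3E were listed at 0 in both libraries, and 1 passed 1 FPKM, the lysosomal protein CD68, at 11.1 FPKM in perturbed cells, against 34.9 FPKM in control cells. The summed level of these 7 genes was 11.7 FPKM in perturbed cells, against 35.4 FPKM in control cells. Their part in the results was not tested.

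Of the 53 genes, 51 passed 1 FPKM in at least 1 library, 2 were called higher, 3 were called lower and 46 lay between. The 5 calls are 9.80% of the 51, against 15.5% called among all 11785 genes that passed. With a log2 ratio of 2 (4-fold) as the limit on the same scale, no gene of the 51 was called, against 0.602% of all genes higher and 0.713% lower. The genes called higher were GLDC and CAD, and the lower ones CTH, DCK and SAMHD1. In a bulk sample, a different mixture of cells and a different amount of RNA per cell cannot be told apart. The background for one direction is 7.85% called higher and 7.61% called lower. The median log2 ratio of the 51 was -0.19, and that of all genes that passed was -0.06. A ratio below 0 was found in 31 of the 51 genes (60.8%), against 53.5% of all genes that passed. These comparisons were not matched for level, and the ratio of all genes varied with level. Their median was 0.19 at a mean under 5 FPKM, -0.09 at 5 to 20, -0.27 at 20 to 50 and -0.29 at 50 to 100. It was -0.26 at 100 to 200 and -0.15 above. At 50 to 100 FPKM, the range with the most listed genes (16), 12 of these lay below 0, against 585 of 844 of all genes. At 5 to 20 FPKM the median of the listed genes (8) was -0.90, against -0.09 for all genes. It was 0.28 for the 5 listed genes at 100 to 200 FPKM, against -0.26. In the other ranges the medians of listed and all genes lay closer. Scaling each library to a common sum raised the median of all genes by 0.13 on the log2 scale, so ratios of this size are not read as differences here. Under that scaling 64.7% of all called genes were higher, against 50.8% with the deposited values.

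**Figure D1:**
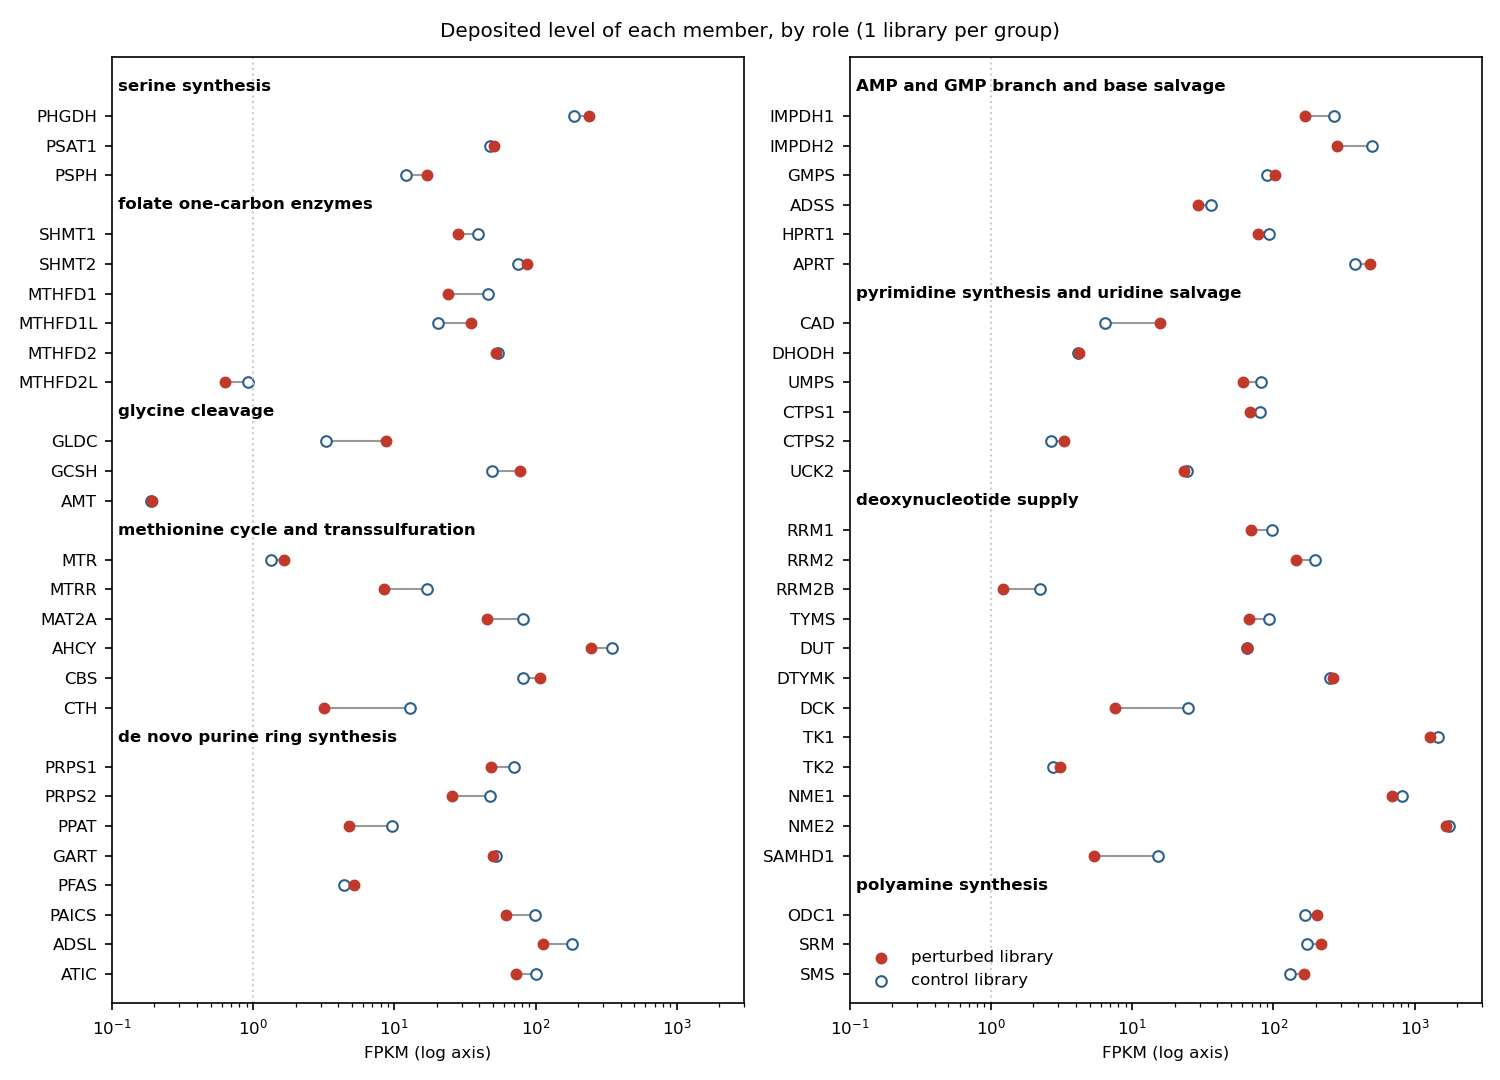
Deposited FPKM of the 53 genes on a log axis, in 9 groups by role, with the perturbed library as filled red points and the control library as open blue points. The widest gaps are those of CTH, DCK and SAMHD1, with the perturbed value lower, and of GLDC and CAD, with the perturbed value higher, while MTHFD2L and AMT are the 2 genes left of the dotted line at 1 FPKM in both libraries.

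The genes covered a wide range of levels. NME2, a nucleoside diphosphate kinase, was the most abundant at 1671 FPKM in perturbed cells, against 1765 FPKM in control cells. TK1, the cytosolic thymidine kinase that salvages thymidine in S phase, was next with 1288 FPKM in perturbed cells, against 1465 FPKM in control cells. AMT, the aminomethyltransferase of glycine cleavage, was the least abundant at 0.193 FPKM in perturbed cells, against 0.189 FPKM in control cells. Its estimated 2.81 fragments in each library are too few to compare. At least 100 FPKM was reached in both libraries by 14 genes, and 7 genes stayed under 5 FPKM in both. The 53 genes together made up 0.877% of the summed FPKM in the perturbed library and 0.888% in the control.

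The promoter windows of the 5 called genes are shown because these genes carry the largest differences, and that of PPAT and PAICS because it holds the starts of both. Each runs 5′ to 3′ on the strand of the gene, 250 bases before to 50 after its start, and was taken from RefSeq on GRCh38.p14, another build than the hg19 of the deposited values. Capitals mark motif letters found on either strand. The motifs searched were the E-box CACGTG, which MYC and related factors bind, and the E2F motifs TTTCCCGC and TTTGGCGC. The others were the NF-Y motif CCAAT, the TATA box with its letters TATAAA, and the ATF4 and C/EBP element TGATGNAA. A CCAAT match lies in 4 of them, and an E-box in the windows of DCK and of PPAT and PAICS. No match in these windows overlaps one of another motif.
CTH, chr1:70411018-70411317 (plus strand): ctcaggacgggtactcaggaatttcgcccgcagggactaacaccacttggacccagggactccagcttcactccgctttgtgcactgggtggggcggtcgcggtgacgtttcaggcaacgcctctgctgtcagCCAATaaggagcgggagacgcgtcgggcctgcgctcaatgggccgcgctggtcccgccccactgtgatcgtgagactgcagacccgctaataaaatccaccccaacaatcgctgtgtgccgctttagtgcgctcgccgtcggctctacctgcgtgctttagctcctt
DCK, chr4:70993399-70993698 (plus strand): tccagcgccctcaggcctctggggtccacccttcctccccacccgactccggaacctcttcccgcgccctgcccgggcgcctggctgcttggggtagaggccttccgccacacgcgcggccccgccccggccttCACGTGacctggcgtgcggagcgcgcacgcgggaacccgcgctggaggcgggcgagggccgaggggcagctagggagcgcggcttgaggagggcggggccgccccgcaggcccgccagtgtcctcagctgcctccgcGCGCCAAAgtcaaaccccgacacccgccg
SAMHD1, chr20:36951659-36951958 (minus strand): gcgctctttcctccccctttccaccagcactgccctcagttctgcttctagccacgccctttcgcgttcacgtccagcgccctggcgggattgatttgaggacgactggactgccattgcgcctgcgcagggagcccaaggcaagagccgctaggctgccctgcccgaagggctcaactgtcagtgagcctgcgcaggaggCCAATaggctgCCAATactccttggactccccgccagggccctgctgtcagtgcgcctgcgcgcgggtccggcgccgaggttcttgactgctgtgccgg
CAD, chr2:27217119-27217418 (plus strand): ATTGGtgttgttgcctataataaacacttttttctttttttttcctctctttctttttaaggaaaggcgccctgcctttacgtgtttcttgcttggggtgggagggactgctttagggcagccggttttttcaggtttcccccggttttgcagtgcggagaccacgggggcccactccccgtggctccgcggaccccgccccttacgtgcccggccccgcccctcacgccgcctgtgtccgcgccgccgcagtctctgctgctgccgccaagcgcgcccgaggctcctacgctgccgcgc
GLDC, chr9:6645680-6645979 (minus strand): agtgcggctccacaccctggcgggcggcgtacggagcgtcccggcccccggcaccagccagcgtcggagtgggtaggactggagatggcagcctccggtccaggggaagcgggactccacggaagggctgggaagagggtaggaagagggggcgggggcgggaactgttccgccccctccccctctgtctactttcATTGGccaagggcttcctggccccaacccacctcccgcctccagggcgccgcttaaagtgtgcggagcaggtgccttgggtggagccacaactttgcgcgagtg
PPAT and PAICS, chr4:56435502-56435801 (plus strand): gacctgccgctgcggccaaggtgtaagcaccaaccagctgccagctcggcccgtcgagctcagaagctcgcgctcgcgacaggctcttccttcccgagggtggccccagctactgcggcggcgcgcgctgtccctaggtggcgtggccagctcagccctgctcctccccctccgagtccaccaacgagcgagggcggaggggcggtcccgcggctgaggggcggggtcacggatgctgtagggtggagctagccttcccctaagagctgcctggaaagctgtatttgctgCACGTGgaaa

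The DCK window was the only one of these 6 with an E2F match, TTTGGCGC on the opposite strand at positions 21 to 28 from the start, and its E-box lay at -116 to -111. The SAMHD1 window held 2 CCAAT matches, at -49 to -45 and at -38 to -34 from the start. The PPAT and PAICS window follows the strand of PAICS, with PPAT starting on the other strand at position 114 of the window, 137 bases before the start of PAICS. The RefSeq table had 71 windows for 47 of the 53 genes. An E-box was present in 16.9% of these windows, against 7.26% of all 35116 windows. An E2F match was present in 11.3%, against 2.27%. The CCAAT box was present in 46.5% against 34.6%, the TATA box in 7.04% against 11.5%, and the ATF4 and C/EBP element in 4.23% (3 windows, all of MTHFD1L) against 3.62%. Several windows of 1 gene overlap, and a match of letters is not a site of binding. The windows of PPAT and PAICS overlap too, so the same E-box counts for both genes. The background windows were not limited to genes that passed 1 FPKM. E-box windows belonged to 10 genes, which were ATIC, DCK, DHODH, MTHFD1, MTHFD1L, NME1, ODC1, PAICS, PPAT and SRM. E2F windows belonged to 7 genes, which were AHCY, DCK, DUT, GART, MTR, PRPS2 and TYMS.

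None of the 3 enzymes of serine synthesis was called, and all 3 had ratios above 0, with a median log2 ratio of 0.34. Of all 11785 genes that passed, 5484 had ratios above 0. PHGDH, which commits 3-phosphoglycerate to serine, was at 239 FPKM in perturbed cells, against 188 FPKM in control cells, a fold of 1.27 (1.21 to 1.33). PSAT1, the aminotransferase of the middle step, was at 50.4 FPKM in perturbed cells, against 47.3 FPKM in control cells, a fold of 1.07 (0.958 to 1.18). PSPH, the phosphatase that releases serine, was at 17.1 FPKM in perturbed cells, against 12.2 FPKM in control cells, a fold of 1.40 (1.17 to 1.68). The interval excluded a fold of 1 for PHGDH and PSPH and held it for PSAT1. The median of the group stayed between 0.34 and 0.57 under every scaling tried, including removal of trends on level, transcript length and GC content.

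The folate enzymes that handle the serine-derived unit included none that was called, 2 above 0 and 3 below 0 among the 5 that passed. Both ratios above 0 belonged to mitochondrial enzymes, and both cytosolic enzymes lay below 0. MTHFD1L, the mitochondrial enzyme that releases formate, was at 34.9 FPKM in perturbed cells, against 20.3 FPKM in control cells, 1.72-fold higher (1.55 to 1.91). MTHFD1, the cytosolic trifunctional enzyme that takes up formate, was at 24.1 FPKM in perturbed cells, against 45.7 FPKM in control cells, 1.89-fold lower (1.72 to 2.09). MTHFD1L was thus 59.1% of the summed FPKM of the pair in the perturbed library and 30.7% in the control, the widest shift of the 9 paralog pairs compared. SHMT2, the mitochondrial enzyme that makes glycine from serine, was at 86.7 FPKM in perturbed cells, against 74.6 FPKM in control cells, a fold of 1.16 (1.08 to 1.26). SHMT1, its cytosolic paralog, was at 28.3 FPKM in perturbed cells, against 38.8 FPKM in control cells, 1.37-fold lower (1.23 to 1.53). SHMT2 held 75.4% of its pair's FPKM in the perturbed library and 65.8% in the control. MTHFD2, the mitochondrial dehydrogenase of the same arm, was level at 52.6 FPKM in perturbed cells, against 54.5 FPKM in control cells, with an interval of 0.908 to 1.03, and MTHFD2L was at 0.628 FPKM in perturbed cells, against 0.921 FPKM in control cells.

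**Figure D2:**
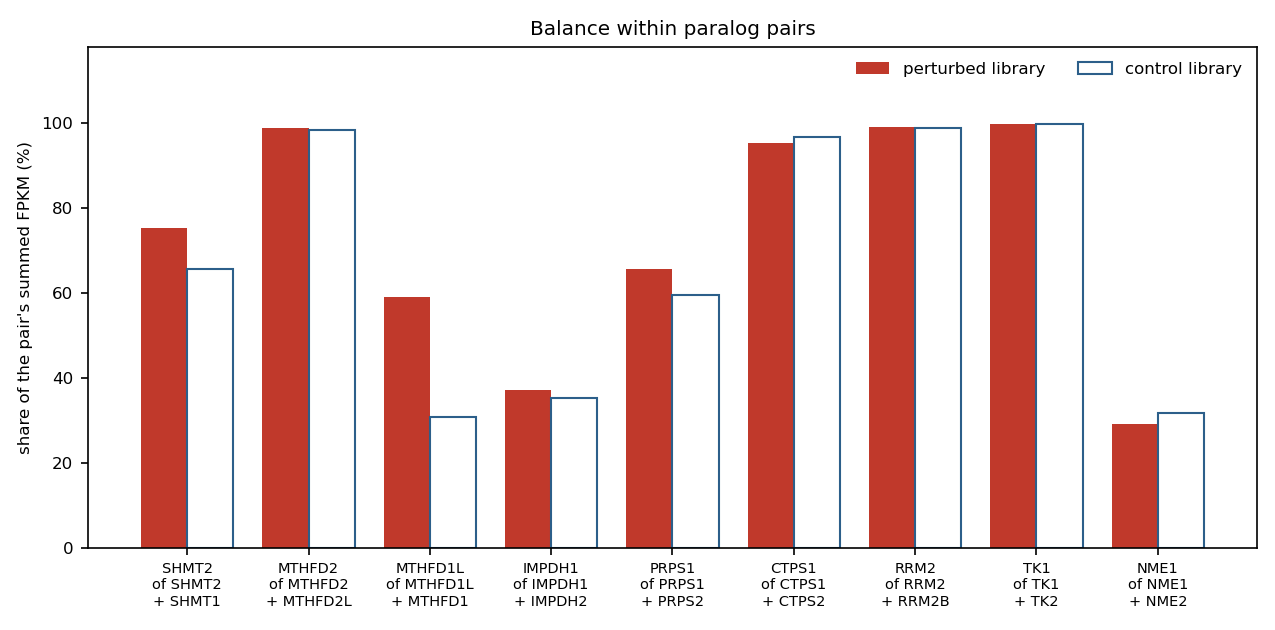
Share of the first-named gene in the summed FPKM of 9 paralog pairs, in percent, with the perturbed library as filled bars and the control library as open bars, 1 library each and no error bars. MTHFD1L holds 59.1% of its pair in the perturbed library and 30.7% in the control, and SHMT2 75.4% and 65.8%; the other pairs differ by 6.05 points or less.

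Glycine cleavage, the mitochondrial system that breaks glycine down and passes its carbon to folate, had 1 of its 2 measurable genes called higher. The share called higher among all genes that passed was 7.85%. GLDC, the glycine decarboxylase subunit, was at 8.66 FPKM in perturbed cells, against 3.27 FPKM in control cells, 2.65-fold higher (2.12 to 3.33), on about 284 fragments in perturbed and 110 in control cells. With a pseudocount of 5 FPKM its log2 ratio was 0.72, against 1.18 with 1 FPKM, and no call. GCSH, the lipoyl carrier subunit, was at 77.0 FPKM in perturbed cells, against 49.3 FPKM in control cells, 1.56-fold higher (1.39 to 1.76), and 5 named pseudogene copies make its value uncertain. DLD, the dehydrogenase subunit shared with other complexes, was at 47.8 FPKM in perturbed cells, against 90.9 FPKM in control cells. DLD thus lay below 0 and the other subunits that passed above it. The 9 genes whose enzymes work in the mitochondrion were grouped after the values were seen. Of these, 7 passed 1 FPKM and 6 of the 7 had a ratio above 0, with a median log2 ratio of 0.21. Among all genes that passed, 5484 of 11785 had a ratio above 0. The 6 include DHODH and TK2, with log2 ratios of 0.03 and 0.13, whose intervals of 0.745 to 1.40 and 0.689 to 1.86 hold a fold of 1. Since the group was formed from these same values, its count is a description and no support for a mitochondrial pattern. No gene of a neighbouring list is among the 9, so DLD and the mitochondrial folate carrier SLC25A32, both below 0, were left out.

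In the methionine cycle and transsulfuration, 1 of 6 genes was called lower and none higher, and the median log2 ratio was -0.65. Over all genes that passed, 7.61% were called lower, and the median was -0.06. CTH, the lyase that makes cysteine from cystathionine, was at 3.20 FPKM in perturbed cells, against 13.0 FPKM in control cells, 4.06-fold lower (2.92 to 5.74). This was the largest ratio of the 53 genes, on about 45.5 fragments in perturbed and 189 in control cells. CBS, the enzyme just before it, was at 108 FPKM in perturbed cells, against 81.1 FPKM in control cells, a fold of 1.33 (1.25 to 1.42), so the 2 steps of the route lay on opposite sides. MAT2A, which makes S-adenosylmethionine, was at 45.6 FPKM in perturbed cells, against 81.1 FPKM in control cells, 1.78-fold lower (1.65 to 1.92). MTRR, the reductase that keeps methionine synthase active, was at 8.45 FPKM in perturbed cells, against 17.0 FPKM in control cells, 2.01-fold lower (1.71 to 2.37), just short of a call once 1 FPKM was added. The gene FASTKD3 on the other strand overlaps MTRR and was at 18.5 FPKM in perturbed cells, against 18.7 FPKM in control cells. This overlap makes the value of MTRR uncertain. AHCY, which clears S-adenosylhomocysteine, was at 246 FPKM in perturbed cells, against 346 FPKM in control cells, 1.40-fold lower (1.35 to 1.46). MTR, methionine synthase itself, was weakly expressed at 1.65 FPKM in perturbed cells, against 1.33 FPKM in control cells, and the sign of its ratio turned when trends on level, length and GC content were removed (-0.51 on the log2 scale).

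The 8 genes from phosphoribosyl pyrophosphate to the finished purine ring had no call, and 7 of them had ratios below 0 (6 after scaling to a common sum), with a median log2 ratio of -0.60. The median stayed between -0.60 and -0.35 under the scalings tried. Among all genes that passed, 53.5% had ratios below 0. At a mean of 50 to 100 FPKM, the range of PAICS, ATIC, GART and PRPS1, 585 of 844 genes did, with a median log2 ratio of -0.29. PPAT, the amidotransferase that commits the route, was at 4.77 FPKM in perturbed cells, against 9.62 FPKM in control cells, 2.02-fold lower (1.65 to 2.47), and was not called with 1 FPKM added. PAICS, which shares its promoter region with PPAT, was at 61.4 FPKM in perturbed cells, against 99.3 FPKM in control cells, 1.62-fold lower (1.52 to 1.72). ADSL, which acts in both ring synthesis and AMP formation, was at 113 FPKM in perturbed cells, against 182 FPKM in control cells, and ATIC, which closes the ring, at 73.0 FPKM in perturbed cells, against 99.9 FPKM in control cells. Both phosphoribosyl pyrophosphate synthetases, which make the sugar the ring is built on, lay below 0. PRPS1 was at 48.6 FPKM in perturbed cells, against 69.9 FPKM in control cells. PRPS2 was at 25.5 FPKM in perturbed cells, against 47.5 FPKM in control cells, 1.86-fold lower (1.65 to 2.11). The intervals of PRPS1, ADSL and ATIC also excluded a fold of 1. GART, which carries 3 of the steps, was at 50.02 FPKM in perturbed cells, against 52.1 FPKM in control cells, and PFAS at 5.16 FPKM in perturbed cells, against 4.37 FPKM in control cells, each with an interval that holds a fold of 1.

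Past the ring, both IMP dehydrogenases, which commit IMP to GMP, had lower values in the perturbed library. IMPDH2 was at 284 FPKM in perturbed cells, against 496 FPKM in control cells, 1.75-fold lower (1.68 to 1.82), and IMPDH1 at 168 FPKM in perturbed cells, against 269 FPKM in control cells, 1.604-fold lower (1.54 to 1.68). The balance between them was nearly the same, with IMPDH1 at 37.1% of the pair in the perturbed library and 35.2% in the control. IMPDH1 has 7 named pseudogene copies, which makes its level uncertain. GMPS, the next step to GMP, was at 103 FPKM in perturbed cells, against 90.1 FPKM in control cells, a fold of 1.14 (1.11 to 1.18), and ADSS, which leads to AMP, at 29.3 FPKM in perturbed cells, against 35.9 FPKM in control cells. Of the base salvage enzymes, HPRT1, which recovers hypoxanthine and guanine, was at 77.5 FPKM in perturbed cells, against 93.6 FPKM in control cells, and APRT, which recovers adenine, at 484 FPKM in perturbed cells, against 380 FPKM in control cells. None of the 6 was called.

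**Figure D3:**
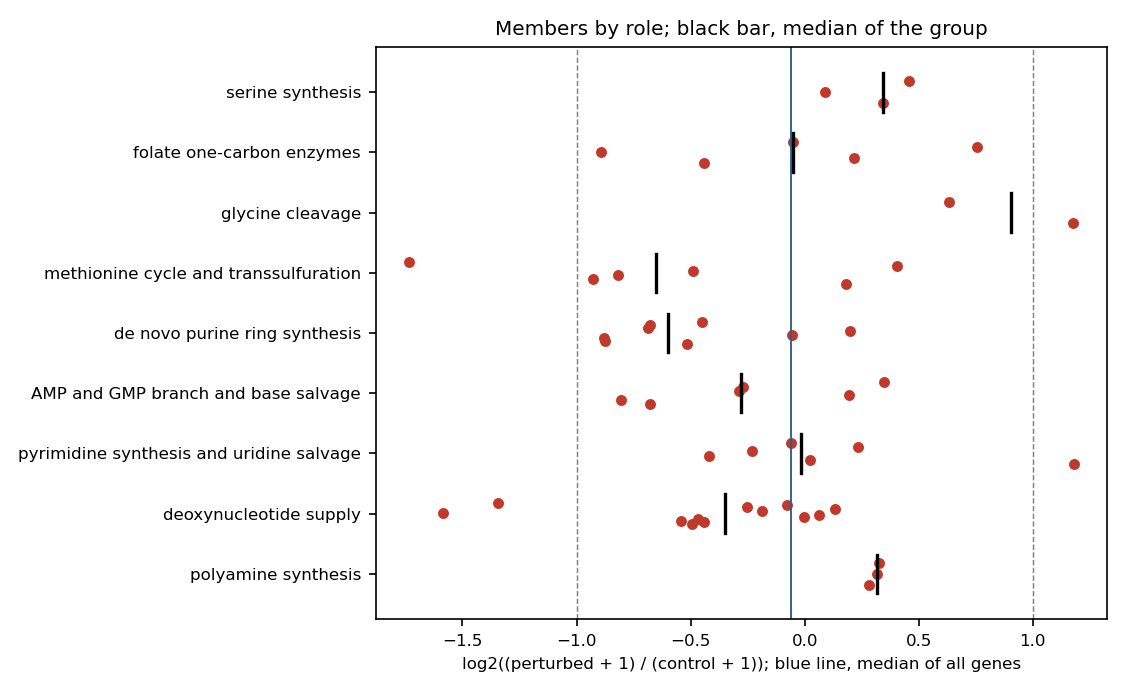
Log2 ratios of the 51 genes at 1 FPKM or more in a library, perturbed over control with 1 FPKM added, in 9 rows by role; each point is a gene, black bars are row medians, the blue line is the median of all genes (-0.06) and dashed lines mark the size of a call. Purine ring genes lie mostly to the left (median -0.60), and serine and polyamine synthesis genes to the right (0.34 and 0.32).

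Pyrimidine synthesis had 1 of 6 genes called higher, against 7.85% of all genes that passed. CAD, the fused enzyme of the opening steps, was at 15.8 FPKM in perturbed cells, against 6.44 FPKM in control cells, 2.46-fold higher (2.19 to 2.77). Its transcript is long, about 7083 bases, and genes over 4000 bases had a median log2 ratio of 0.21. With trends removed, the log2 ratio of CAD was 0.90 and no longer a call, and with a pseudocount of 5 FPKM it was 0.87. DHODH, the mitochondrial step, was at 4.21 FPKM in perturbed cells, against 4.12 FPKM in control cells, and UMPS, which makes UMP, at 60.9 FPKM in perturbed cells, against 81.8 FPKM in control cells, 1.34-fold lower (1.29 to 1.40). Of the CTP synthases, CTPS1 was at 68.0 FPKM in perturbed cells, against 80.001 FPKM in control cells. CTPS2 was far less abundant, at 3.29 FPKM in perturbed cells, against 2.64 FPKM in control cells. UCK2, which salvages uridine and cytidine, was at 23.4 FPKM in perturbed cells, against 24.5 FPKM in control cells.

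Among the 12 genes of deoxynucleotide supply, 2 were called lower and none higher, and 10 had ratios below 0, a number that was 8 after scaling to a common sum. Of all genes that passed, 7.61% were called lower and 53.5% had ratios below 0. DCK, the kinase that salvages deoxycytidine and activates cytidine-analogue drugs, was at 7.56 FPKM in perturbed cells, against 24.7 FPKM in control cells, 3.26-fold lower (2.74 to 3.90). SAMHD1, which breaks deoxynucleotides down, was at 5.40 FPKM in perturbed cells, against 15.2 FPKM in control cells, 2.82-fold lower (2.39 to 3.33). The RNA levels of a source and a sink of the deoxynucleotide pool were thus both lower, and the pool itself was not measured. DCK rested on about 168 fragments in perturbed and 562 in control cells, and SAMHD1 on about 198 in perturbed and 570 in control cells. With trends removed both remained calls, at a log2 ratio of -1.33 for DCK and -1.39 for SAMHD1, but with a pseudocount of 5 FPKM SAMHD1 was at -0.96 and no call.

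The main enzymes of the deoxynucleotide route differed less. RRM1, the large subunit of ribonucleotide reductase, was at 69.3 FPKM in perturbed cells, against 97.9 FPKM in control cells, 1.41-fold lower (1.32 to 1.51). RRM2, its S-phase small subunit, was at 145 FPKM in perturbed cells, against 197 FPKM in control cells, 1.36-fold lower (1.30 to 1.42). RRM2B, the p53-induced small subunit, was at 1.21 FPKM in perturbed cells, against 2.22 FPKM in control cells, on too few fragments (15.1 in perturbed and 28.4 in control cells) to tell the libraries apart. TYMS, thymidylate synthase, was at 67.3 FPKM in perturbed cells, against 93.5 FPKM in control cells, 1.39-fold lower (1.27 to 1.52). The gene ENOSF1 on the other strand overlaps it and was at 19.1 FPKM in perturbed cells, against 18.5 FPKM in control cells. DUT, which removes dUTP, was at 65.0 FPKM in each library, and DTYMK, which phosphorylates dTMP, at 265 FPKM in perturbed cells, against 254 FPKM in control cells. TK1 was 1.14-fold lower (1.11 to 1.16), and its log2 ratio of -0.19 was -0.05 after scaling to a common sum. The mitochondrial kinase TK2 was at 3.09 FPKM in perturbed cells, against 2.74 FPKM in control cells. NME1 was at 688 FPKM in perturbed cells, against 821 FPKM in control cells, and the read-through locus NME1-NME2, which shares exons with both kinases, at 3.75 FPKM in perturbed cells, against 10.1 FPKM in control cells.

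The polyamine genes ODC1, SRM and SMS had nearly the same ratio. ODC1, the ornithine decarboxylase that opens the route, was at 205 FPKM in perturbed cells, against 169 FPKM in control cells, a fold of 1.22 (1.16 to 1.27). SRM, spermidine synthase, was at 217 FPKM in perturbed cells, against 174 FPKM in control cells, a fold of 1.25 (1.17 to 1.33), and SMS, spermine synthase, at 165 FPKM in perturbed cells, against 131 FPKM in control cells, a fold of 1.26 (1.17 to 1.34). None was called. Their median log2 ratio was 0.32 and stayed above 0 under every scaling tried.

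**Figure D4:**
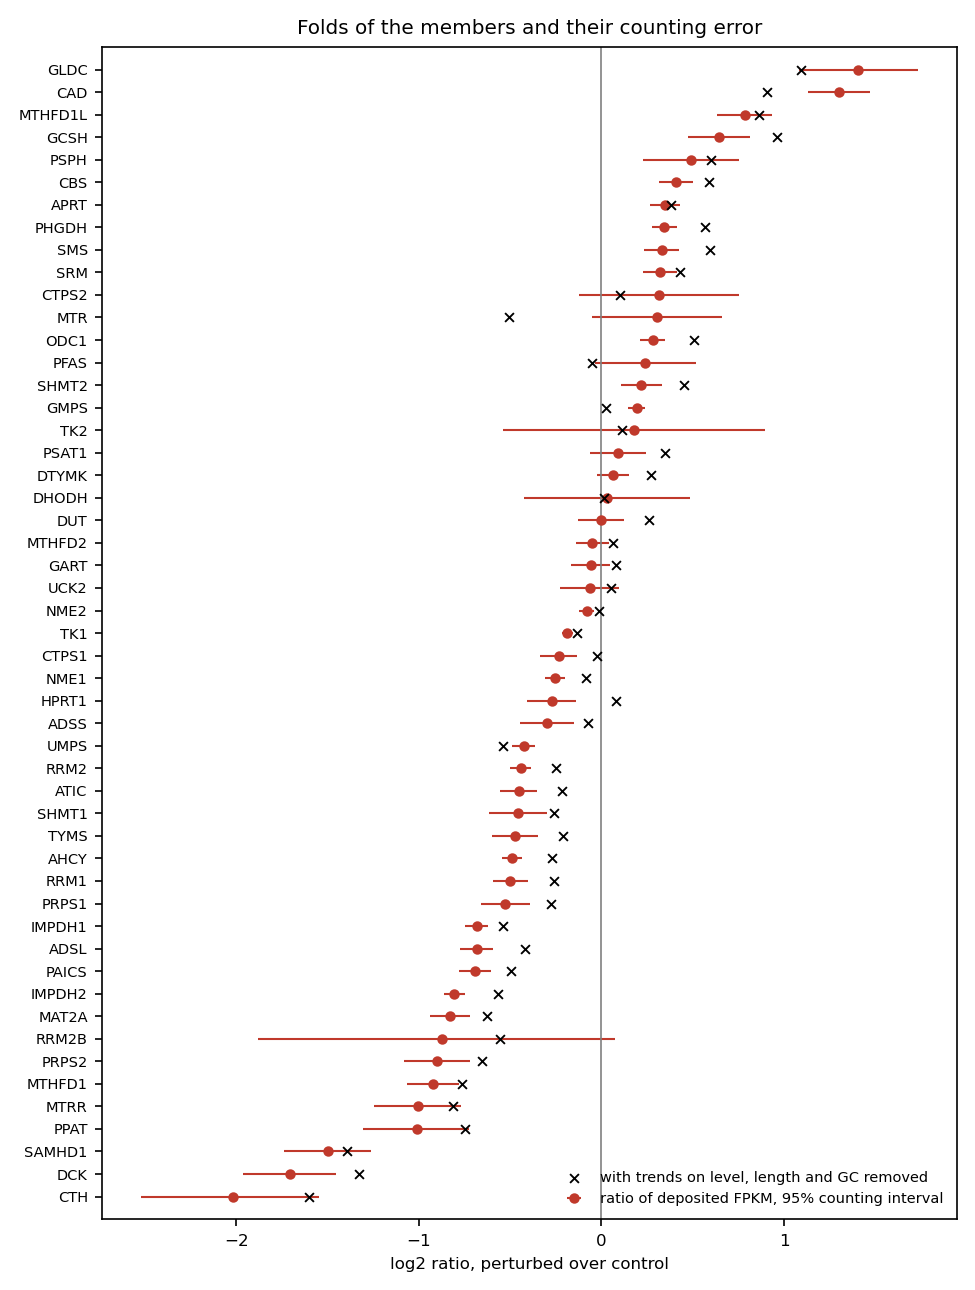
Log2 of the FPKM ratio, perturbed over control, for the 51 genes, sorted by size, with bars for the 95% counting interval and crosses for the log2 ratio with 1 FPKM added and trends on level, transcript length and GC content removed. CTH, DCK and SAMHD1 lie apart at the bottom and GLDC and CAD at the top; the cross of CAD falls at 0.90, and that of MTR on the other side of 0.

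The counting interval excluded a fold of 1 for 39 of the 51 genes, 13 with a fold above 1 and 26 below 1. This is 76.5% of them, against 71.8% of all 11273 genes that passed and had a transcript of at least 300 bases, of which 32.3% lay above 1 and 39.4% below. Most of the folds above are therefore larger than counting error and smaller than a call, and how they compare with the spread between cultures could not be measured. Trend removal moved many ratios. It left the median of the 51 genes at -0.05, against -0.06 for all genes. The sign of the ratio changed under at least 1 scaling for 8 genes, all with a log2 ratio of 0.27 or less in size, namely MTHFD2, MTR, GART, PFAS, HPRT1, NME2, DUT and UCK2. HPRT1 and NME2 are also among the 26 with an interval below 1, since the intervals hold for the deposited scaling only.

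**Figure D5:**
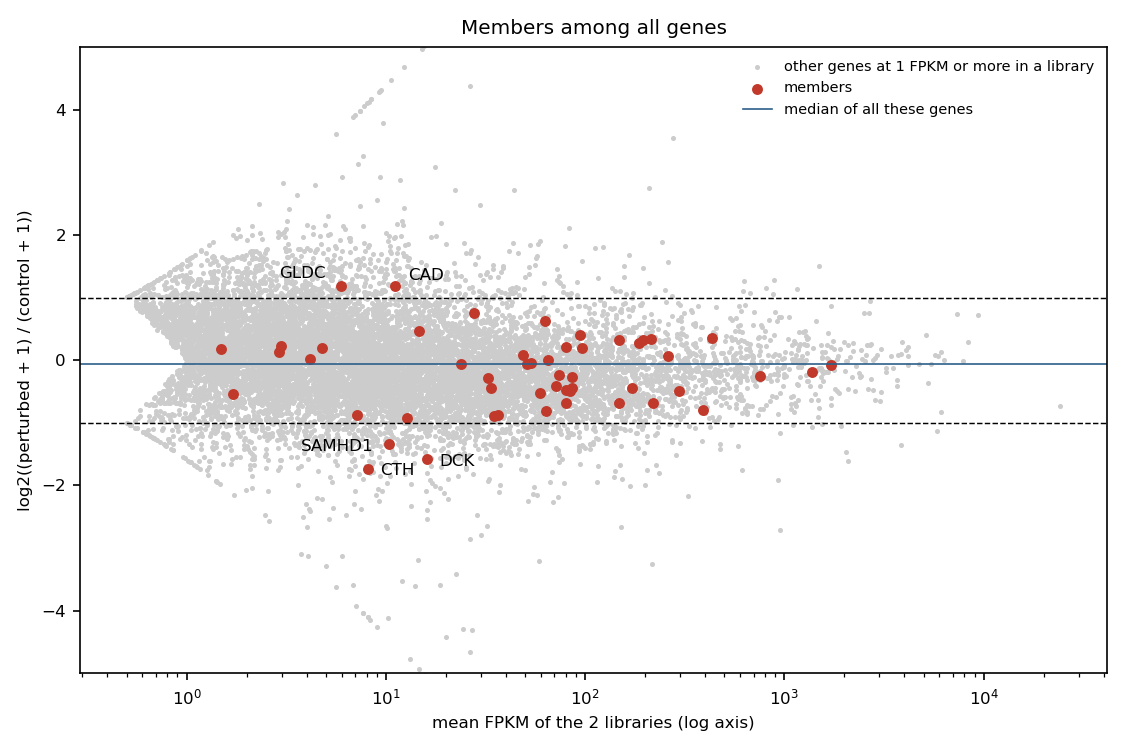
Log2 ratio against mean FPKM (log axis) for the 11785 genes at 1 FPKM or more in a library (grey), with the 51 listed genes in red, dashed lines at the size of a call and the all-gene median in blue; 17 genes lie outside the plotted range. The 5 called genes have mean levels under 20 FPKM, and the listed genes above that level all lie between the dashed lines.

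Position gave a comparison between genes that start head to head. Of the 47 genes with a promoter window, 6 had a measured partner that starts on the other strand within 1000 bases. The other 6 of the 53 genes had no window and could not be searched. PPAT and PAICS, with starts 137 bases apart, had log2 ratios of -0.88 and -0.69. GART and the splicing protein gene SON start 146 bases apart, and SON was at 71.2 FPKM in perturbed cells, against 21.0 FPKM in control cells, while GART was level. Exons of SON also overlap GART on the other strand. TK1 and AFMID start 158 bases apart, with AFMID at 31.5 FPKM in perturbed cells, against 42.8 FPKM in control cells. MAT2A faced the non-coding RNA PARTICL, at 3.43 FPKM in perturbed cells, against 3.44 FPKM in control cells, and DTYMK faced ING5, at 2.28 FPKM in perturbed cells, against 2.65 FPKM in control cells. The libraries do not mark strand, so reads from overlapping exons of the other strand, which the annotation gives for 16 of the 53 genes, cannot be told apart. Named pseudogene copies, which could share reads, exist for 20 of the 53 genes, with 8 for DUT, 7 each for MTHFD2, PAICS and IMPDH1, and 6 for AHCY.

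Other genes of the pathway were taken from lists of neighbouring steps. Of 15 genes of folate uptake and the folate pool, 11 passed 1 FPKM, 1 was called higher and none lower. Over all genes that passed, 7.85% were called higher and 7.61% lower. The called gene was SLC19A1, the reduced folate carrier, at 19.2 FPKM in perturbed cells, against 8.18 FPKM in control cells, 2.35-fold higher (1.90 to 2.92). FOLR1, the folate receptor, was at 62.6 FPKM in perturbed cells, against 111 FPKM in control cells, and SLC25A32, the mitochondrial folate carrier, at 4.22 FPKM in perturbed cells, against 8.81 FPKM in control cells. SLC46A1, the proton-coupled folate transporter, was at 3.52 FPKM in perturbed cells, against 2.84 FPKM in control cells, a fold of 1.24 (0.989 to 1.55). With a pseudocount of 5 FPKM no gene of this list was called.

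Of 38 genes of nucleoside transport, kinases and breakdown, 33 passed, 1 was called higher and 3 lower. Calls made up 12.1% of the 33, against 15.5% of all genes that passed (7.85% higher and 7.61% lower). Of the equilibrative nucleoside transporters, SLC29A2 was called higher, at 10.99 FPKM in perturbed cells, against 4.83 FPKM in control cells, 2.27-fold higher (1.79 to 2.91), and SLC29A1 lower, at 65.3 FPKM in perturbed cells, against 137 FPKM in control cells, 2.09-fold lower (1.96 to 2.24). PNP, purine nucleoside phosphorylase, was at 35.7 FPKM in perturbed cells, against 113 FPKM in control cells, 3.16-fold lower (2.83 to 3.54). XDH, xanthine dehydrogenase, was at 0.471 FPKM in perturbed cells, against 1.96 FPKM in control cells. The balance of this list depended on the scaling. Under common-sum scaling, and under centring on the median ratio, 2 genes were called higher (SLC29A2 and NUDT1) and 1 lower (PNP). With trends removed 3 were higher and 3 lower, SLC29A1 not among them, at a log2 ratio of -0.83.

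Of 15 genes of methionine salvage and polyamine turnover, 2 were called lower and none higher, and 12 had ratios below 0, with a median log2 ratio of -0.53. Of all genes that passed, 7.61% were called lower, and 53.5% had ratios below 0. SAT1, which acetylates polyamines for export, was at 216 FPKM in perturbed cells, against 447 FPKM in control cells, and AZIN1, which protects ornithine decarboxylase, at 35.9 FPKM in perturbed cells, against 73.4 FPKM in control cells. Neither was a call under common-sum scaling, under centring, or with trends removed, where SAT1 was at -0.79 and AZIN1 at -0.85 on the log2 scale. Of 8 serine, glycine and cystine transport genes that passed, only SLC3A2, the heavy chain of several amino acid exchangers, was called, lower at 388 FPKM in perturbed cells, against 1470 FPKM in control cells. Of 7 pentose phosphate genes none was called, with TALDO1, transaldolase, at 375 FPKM in perturbed cells, against 424 FPKM in control cells, and PGLS at 180 FPKM in perturbed cells, against 100.6 FPKM in control cells.

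Transcription factors known to act on these genes were measured as well. None of 6 MYC and E2F factors that passed was called, with TFDP1 at 69.4 FPKM in perturbed cells, against 82.8 FPKM in control cells, and E2F1 at 28.1 FPKM in perturbed cells, against 27.6 FPKM in control cells. MYC was at 20.3 FPKM in perturbed cells, against 15.8 FPKM in control cells. Of 9 genes of the ATF4 and amino acid response that passed, 1 was called lower, CHAC1, a glutathione-degrading enzyme, at 6.73 FPKM in perturbed cells, against 14.9 FPKM in control cells. Its log2 ratio was -1.04, and it had no matched transcript, so that no interval or trend-removed value was computed. Among all genes that passed, 7.61% were called lower. DDIT3 was at 105 FPKM in perturbed cells, against 211 FPKM in control cells, 2.00-fold lower (1.83 to 2.19), just short of a call. A 1.5-fold rule called 4 genes lower (CHAC1, DDIT3, DDIT4 and SESN2) and 1 higher (ATF5). Over all genes that passed, it called 21.3% lower and 19.1% higher. Under common-sum scaling, and under centring, CHAC1 was no call and 1 gene, ATF5, was called higher. The direction of the calls thus did not hold across scalings. The median log2 ratio of the list was below 0 under every scaling tried, between -0.24 and -0.05. With trends removed it was -0.05, against -0.06 for all genes, and 4 of 8 ratios lay below 0. ATF4 itself, which drives serine synthesis genes under amino acid shortage, was at 108 FPKM in perturbed cells, against 91.0 FPKM in control cells.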

How the data were processed

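RNA-seq was available for 1 perturbed and 1 control library. The authors deposited 1 FPKM value per gene symbol and library, per the file headers. Per the labels' protocols, a SMART-Seq HT kit, which does not mark strand, gave the cDNA and Nextera XT the libraries. Cuffdiff 2.2.1, TopHat2 2.1.1, SAMtools 0.1.18, Bowtie2 2.2.8 and the build hg19 appear in the submitters' processing notes. Which annotation, filters and scaling were used is not given in the sources used here.

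From these values, log2 ratios with a pseudocount of 1 FPKM were computed with Python 3.11.15, numpy 2.4.6, pandas 2.3.3 and scipy 1.17.1. The pseudocount understates the change of weakly expressed genes, and folds in the text are ratios without it. The value of 1 fragment was estimated from the steps of low FPKM in 11707 genes with a single RefSeq-matched GENCODE 29 transcript of at least 300 bases, with effective lengths 200 bases shorter; other genes took the median length of their matched transcripts. The cubic trends on level, length and GC content covered 96.3% of the genes that passed 1 FPKM. The depth, interval and trend steps were tested on simulated data. PCR copies are not independent molecules.

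The listed genes, the role groups, the neighbouring lists, the rule of size and the alternatives were chosen with earlier results of these data known. All listed genes were to be named, with called members of the neighbouring lists (up to 4 per direction) or the 2 most abundant where none passed. DLD, FOLR1, SLC46A1, SLC25A32, NUDT1, ATF5, DDIT3, DDIT4, SESN2, KRT8, PAX8, MYC, ATF4 and the facing or overlapping genes were added after their values were seen. One gene of the folate list is not reported here.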

Additional observations from a re-analysis of the deposited data

How the results depend on the processing

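The same 2 genes were called higher and 3 lower with a pseudocount of 0.1 FPKM, with libraries scaled to a common sum, centred on the median ratio or scaled by a trimmed mean, with no filter, and with filters of 5 FPKM in a library or 1 FPKM in both. With a pseudocount of 5 FPKM, 0 were called higher and 2 lower (CTH and DCK), the calls of GLDC, CAD and SAMHD1 being lost. With trends removed 1, GLDC, was called higher, because the ratio of CAD moved to 0.90, and 3 lower. A 1.5-fold rule called 4 higher and 12 lower (19.1% and 21.3% of all genes that passed), and a 4-fold rule called 0 in each direction. The median log2 ratio was -0.046 after common-sum scaling, and it was -0.050 once trends were removed. No paired analysis was possible because each group has 1 library, and for the same reason no library could be left out. Of the 51 single ratios, 29 moved by more than 0.5 times the width of their counting interval (log2) under common-sum scaling and 36 with trends removed; no called gene changed sign. Depth limits AMT, MTHFD2L, RRM2B and TK2.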
